A study of Mus musculus with 23 samples.

Results

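Sorted mouse pancreatic alpha cells were set against whole non-tumor pancreas, gene by gene, by the rank each gene held within its own RNA sequencing library. The members were the 3 libraries labelled as sorted alpha cells heterozygous for Gcgr, the glucagon receptor gene, and the 8 libraries labelled as control tissue, together 11 of the 23 libraries of the series. Alpha cells came from dispersed islets of mice given tamoxifen at 200 mg/kg intraperitoneally over 5 days, and their islets were collected between day 14 and day 21 afterwards. The control tissue was non-tumor pancreas of mice homozygous for the Gcgr knockout, and its treatment label reads none. The labels give no age, sort marker, Cre driver or tie between libraries and animals, so the spread between libraries may be partly technical. Sorted cells or tissue, heterozygous or homozygous genotype, tamoxifen or none, and the deposited table all change together between the groups, and cannot be told apart. The 2 tables were normalised separately, so no p-value was computed across them.

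Alpha cells are the islet cells that make glucagon, the hormone that raises blood glucose and liver amino acid use through its receptor. They store the hormone in secretory granules and release it through electrical activity and calcium entry. The pancreas itself is mostly exocrine: acinar cells make digestive enzymes under the factors Ptf1a and Rbpjl, ducts carry the juice to the gut, and islets, vessels, connective tissue and leukocytes fill the remainder.

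The promoters of 1 hormone gene and 2 acinar genes are shown because these genes carry the contrast: Gcg, the glucagon gene, led every alpha cell library, Cela1, an elastase gene, was among the 6 highest genes of the tissue, and Rbpjl, an acinar transcription factor gene, was at 0 in every alpha cell library. Each runs from 250 bases before to 50 bases from the start of transcription, 5′ to 3′ on the gene's strand, from RefSeq on GRCm38.p6. Capitals mark TATAAA, the TATA box, CACCTG, an E-box, and TTTCCC, a TC-box, on either strand, as searched for in these windows. The Gcg window lies at chr2:62483604-62483903 on the minus strand, the Rbpjl window at chr2:164402944-164403243 on the plus strand and the Cela1 window at chr15:100687871-100688170 on the minus strand.
Gcg: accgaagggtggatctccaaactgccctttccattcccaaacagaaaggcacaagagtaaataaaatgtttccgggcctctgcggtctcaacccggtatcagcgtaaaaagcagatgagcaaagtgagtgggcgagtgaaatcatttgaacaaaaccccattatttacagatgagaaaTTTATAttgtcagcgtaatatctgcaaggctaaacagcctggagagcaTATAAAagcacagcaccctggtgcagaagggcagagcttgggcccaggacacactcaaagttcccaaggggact
Rbpjl: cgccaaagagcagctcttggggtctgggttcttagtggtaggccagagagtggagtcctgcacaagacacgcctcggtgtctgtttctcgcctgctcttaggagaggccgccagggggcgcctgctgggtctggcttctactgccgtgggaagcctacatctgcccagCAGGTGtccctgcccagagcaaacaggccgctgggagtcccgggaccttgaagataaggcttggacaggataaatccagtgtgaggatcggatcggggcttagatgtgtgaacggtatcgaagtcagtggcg
Cela1: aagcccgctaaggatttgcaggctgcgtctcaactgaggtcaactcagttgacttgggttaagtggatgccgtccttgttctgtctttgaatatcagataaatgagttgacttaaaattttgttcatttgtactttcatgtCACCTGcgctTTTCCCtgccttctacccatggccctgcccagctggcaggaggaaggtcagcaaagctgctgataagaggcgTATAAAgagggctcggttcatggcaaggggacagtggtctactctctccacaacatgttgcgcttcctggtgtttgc
The Gcg window held TATAAA 24 bases before the start and, on the other strand, 72 bases before it. The Rbpjl window held CACCTG on the other strand, 82 bases before the start. The Cela1 window held CACCTG 109, TTTCCC 99 and TATAAA 27 bases before the start. A further motif searched for, part of the Maf recognition element, lay 53 bases before it on the other strand and is not in capitals.

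Ranks are given as percentiles over the 19126 gene symbols found in both tables, with 100 the highest and ties averaged. Genes at 0 therefore share a percentile, which was 17.7 to 23.3 in the alpha cell libraries and 15.7 to 19.5 in the tissue. A gene is said to rank higher or lower where the percentiles of the 3 and the 8 libraries did not overlap and the group medians lay at least 10 points apart. This was counted over the 8605 genes at 1 RPKM (reads scaled to gene length and library total) or more in at least 3 of the 11 libraries. The scale is compressed at the top, so a gene that is already high can differ many times over without reaching 10 points. For high genes, rank positions, shares of the library and whether the groups lay apart are therefore given as well.

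The tissue libraries rested on at least 7082921 to 14068802 reads, read back from the steps in their values, while the depth of the alpha cell libraries is unknown. Between 10198 and 12363 of the shared genes were above 0 in the alpha cells and between 11669 and 13119 in the tissue. Pearson's r of percentiles was 0.661 to 0.751 among the alpha cell libraries, 0.783 to 0.945 among the tissue libraries and -0.011 to 0.183 between the groups. Tissue libraries 1 and 2 stood apart from the other 6: library 1 was lowest for islet, stromal and macrophage genes, and library 2 was highest for leukocyte and proliferation genes. Y-chromosome genes were at or near 0 in alpha cell library 3 and tissue libraries 2, 7 and 8, and higher in the remaining libraries. Both groups may therefore mix animals of both sexes, and the part of sex in the spread was not tested. Several genes that every cell uses were listed at 0 in the tissue, among them Gapdh, a glycolytic enzyme gene, at 0 in all 8 tissue libraries and at 0.365, 4.297 and 3.243 RPKM in the alpha cells. Of the genes ranking higher in alpha cells, 36 were listed at 0 in all 8 tissue libraries and 17 in all 15 libraries of that table. Of those ranking lower, 222 were at 0 in all 3 heterozygous libraries and 90 in all 8 alpha cell libraries. Values of near-identical gene copies, such as trypsins, amylases, alpha globins and the Tmsb15 genes, are uncertain because reads could be split between them.

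In all, 1749 of 8605 genes ranked higher in alpha cells (20.3%) and 1926 ranked lower (22.4%). Groups lay apart without the 10-point minimum for 2057 genes in the higher direction (23.9%) and 2288 in the lower (26.6%), and overlapped for 4260 (49.5%). Both directions together made 42.7% called and 50.5% apart. Over all 19126 shared genes without the filter, 13.3% ranked higher and 13.1% lower. The median difference over all counted genes was -1.15 points, with quartiles of -14.7 and 10.99. Of the 8605 genes, 876 passed the filter with no tissue library at 1 RPKM and 971 with no alpha cell library at it. Such genes could hardly rank the other way, so counts over lists that hold many of them are descriptions only. Without heterozygous library 1, 2 or 3, with the expression filter applied again to the 10 libraries left, 1165, 1091 and 1075 genes ranked higher.

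**Figure D1:**
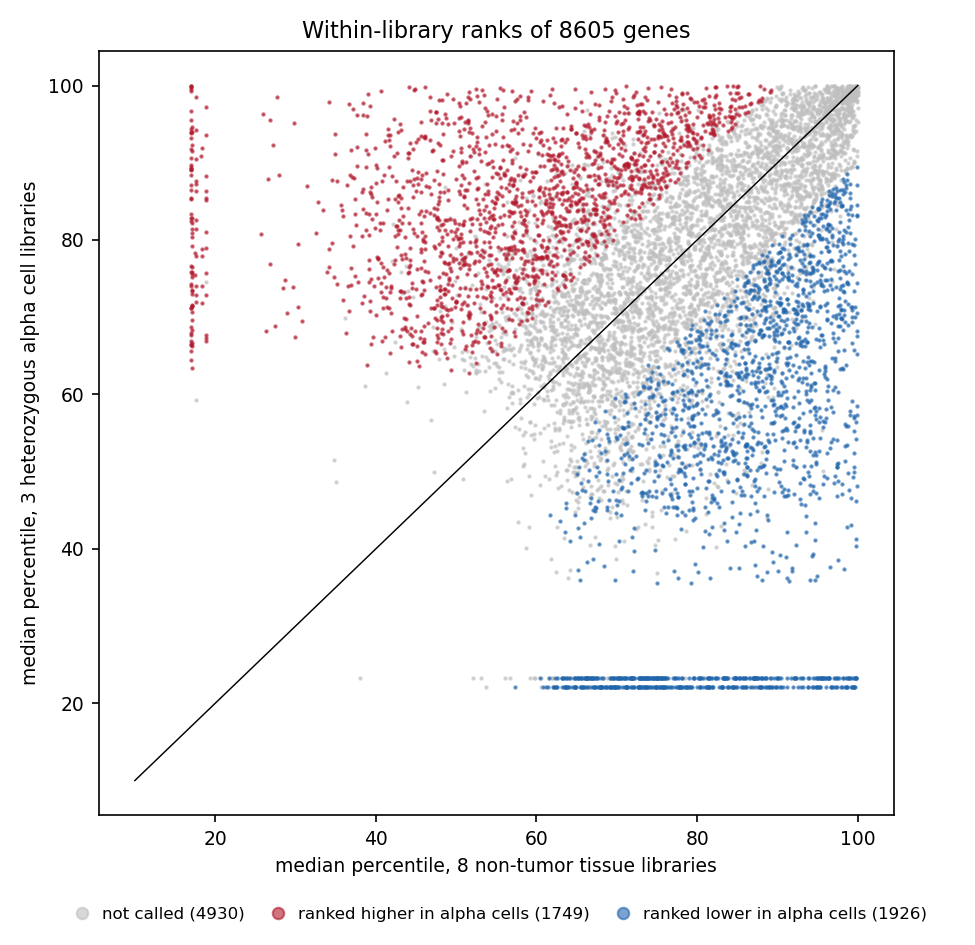
Median percentile of each of 8605 genes in the 3 heterozygous alpha cell libraries (vertical axis) against the 8 non-tumor tissue libraries (horizontal axis), with called genes in color and the line of equality. The 1749 genes ranking higher in alpha cells lie above the line and the 1926 ranking lower lie below it, with bands near the foot of each axis where genes are at 0.

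Gcg was the highest gene of every alpha cell library, at 387094, 278666 and 209220 RPKM, and took 77.5%, 75.4% and 73.1% of the summed values. In the tissue Gcg lay at 34.3 RPKM in the lowest library, 132 at the median and 455 in the highest, at positions 169, 63 and 29 of the ranking. The groups did not overlap, although the difference was only 0.324 percentile points at the top of the scale. The gene lies on chromosome 2 at 62474530 to 62483653 (GRCm38.p6). Gcgr, the gene the study altered, was at 0 in all 3 heterozygous libraries and between 0 and 0.135 RPKM in the tissue, so neither group gives a level that could check the genotype.

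Other islet hormones also stood high in the sorted cells. Ppy, pancreatic polypeptide, was at 1097, 775 and 3822 RPKM against 1.23 to 17.8 in the tissue (median 8.88), and held positions 6, 5 and 3. Pyy, peptide YY, was at 2495, 1460 and 2676 RPKM against 1.39 to 25.5 (median 9.24). Sst, the somatostatin gene of delta cells, was at 98.1, 431 and 692 RPKM against 3.32 to 65.3 (median 33.1). All 3 hormones lay apart in the higher direction, and Sst had the widest percentile range of the 3 among the alpha cell libraries. Of the 5 counted genes of the delta, PP and epsilon cell list, 1 ranked higher, Rbp4, a retinol carrier, and 1 ranked lower, Hhex, a delta cell transcription factor at 0.02, 0 and 0.44 RPKM. Over all counted genes 20.3% ranked higher and 22.4% lower. Of the 5, 1 had passed the filter through the tissue alone, Hhex. Ghrl, ghrelin, was under the filter.

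The beta cell list behaved otherwise: of 12 counted genes, 0 ranked higher, 3 ranked lower and 8 overlapped. Over all counted genes these shares were 20.3%, 22.4% and 49.5%. The 3 that ranked lower had passed the filter through the tissue alone. Ins2, insulin, was at 783, 316 and 197 RPKM in the alpha cells, and at 175 in the lowest, 1388 in the median and 5653 in the highest tissue library. Ins1 was at 902, 257 and 181 RPKM against 93.3, 824 and 4465. The ranges of both insulin genes overlapped. Pdx1, a factor of beta cells and of the developing pancreas, was at 0 in all 3 alpha cell libraries and at 0.654 to 3.06 RPKM in the tissue, and Mafa, an activator of insulin genes, was at 0 against 0.13 to 5.42. Glp1r, the GLP-1 receptor gene, was the remaining gene that ranked lower, and Npy was under the filter. Summed beta cell values were 2014, 745 and 477 RPKM in the alpha cells against 320 to 10557 in the tissue, and the part of beta cell RNA in the alpha cell values was not tested. In these bulk samples, fewer cells of a type and less RNA per cell cannot be told apart.

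Genes of alpha cell identity ranked higher in 11 of 14 counted cases and lower in 0, against 20.3% and 22.4% of all counted genes, with a median difference of 38.5 points. Of the 14, 6 had passed the filter through the alpha cells alone. Irx2, an Iroquois factor, was at 68.7, 42.8 and 16.0 RPKM in the alpha cells against 0 to 0.23 in the tissue (median 0.069), and Irx1 at 26.9, 13.4 and 14.5 against 0 to 0.272 (median 0.07). For both factors every alpha cell library was above every tissue library. Fev, a factor best known from serotonergic neurons, showed the largest difference of the list, with percentiles of 91.5, 89.6 and 92.6 against 16.6 to 43.4. Pou3f4, Dpp10, Sphkap, Gc, Tmem27 and Slc7a2 ranked higher too, and Loxl4 was under the filter.

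Gcg and Ttr lay apart at the top of the scale without a 10-point difference. Ttr, transthyretin, was the second gene of every alpha cell library, at 13892, 8183 and 6275 RPKM against 14.3 to 67.5 in the tissue (median 26.5). The list's exception was Slc38a5, a glutamine transporter gene, at 16.8, 30.4 and 10.01 RPKM in the alpha cells and 26.3, 39.3 and 62.2 in the lowest, median and highest tissue libraries. Its percentiles of 92.99, 97.97 and 93.37 all lay below the tissue range of 98.1 to 99.5.

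**Figure D2:**
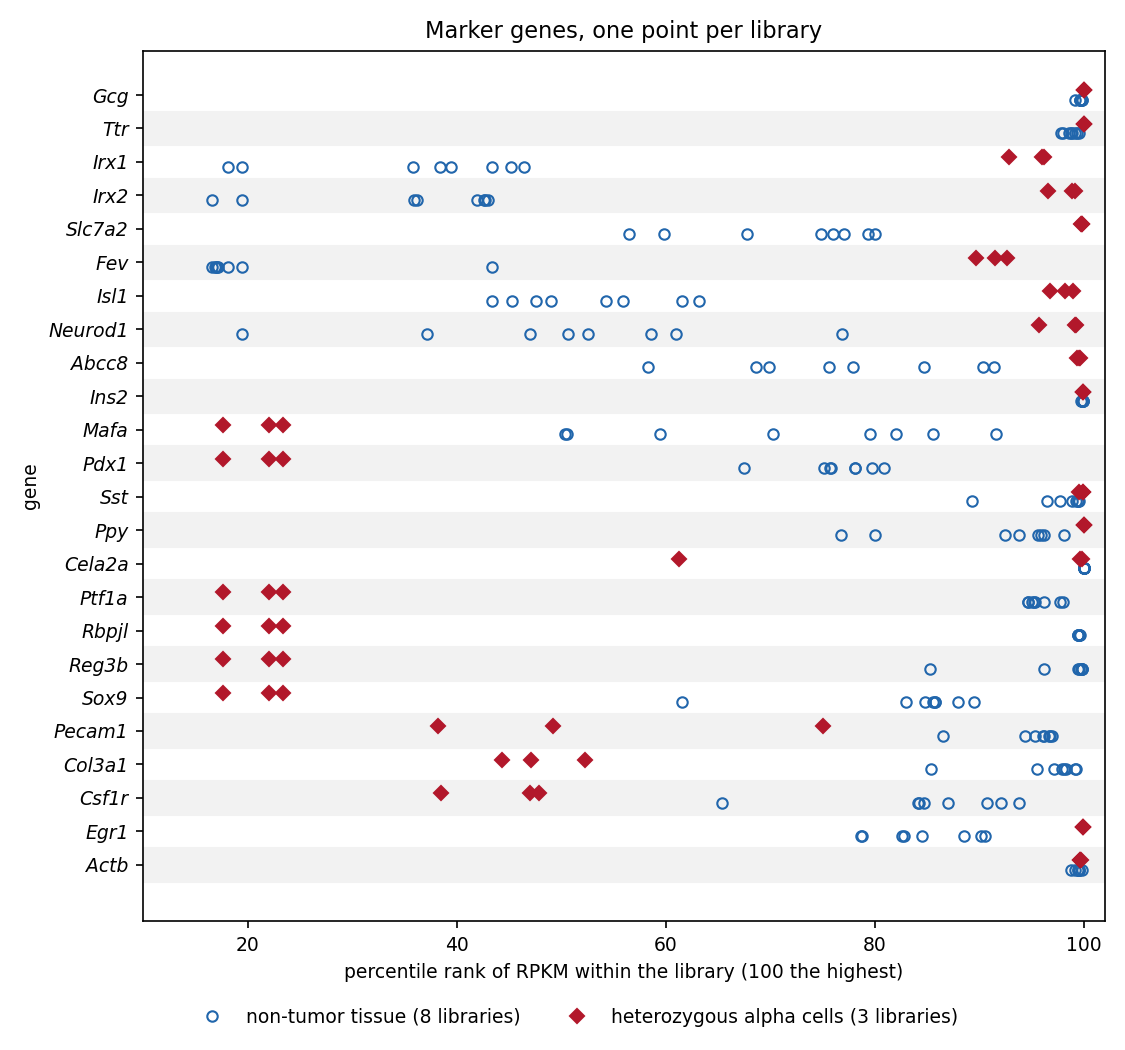
Percentile rank within the library (horizontal axis, 100 the highest) of 24 marker genes, with 1 filled diamond for each of 3 alpha cell libraries and 1 open circle for each of 8 tissue libraries. Irx1, Irx2, Slc7a2 and Fev separate to the right in alpha cells, Ptf1a, Rbpjl, Reg3b, Sox9, Pecam1 and Col3a1 to the left, and Ins2 and Actb overlap.

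Transcription factors shared by islet endocrine cells ranked higher in 9 of 12 counted cases, against 20.3% of all counted genes, with a median difference of 35.8 points. Of the 12, 5 had passed the filter through the alpha cells alone, among them Rfx3, Rfx6, Myt1 and St18. Isl1 was at 29.5, 46.3 and 24.5 RPKM against 0.044 to 1.25 in the tissue (median 0.327), and Neurod1 at 24.7, 53.6 and 40.9 against 0 to 1.56 (median 0.284). Nkx2-2, Pax6, Insm1, Rfx3, Rfx6, Myt1 and St18 made up the 9. Foxa2, a pioneer factor of endoderm, lay apart by less than 10 points, and Hnf4a, a nuclear receptor gene also used in liver, overlapped. Foxa1, Neurog3 and Pax4, factors of endocrine development, were under the filter.

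Prohormone processing and granule exocytosis genes ranked higher in 12 of 26 counted cases and lower in 1, against 20.3% and 22.4% of all counted genes. Another 10 lay apart in the higher direction by under 10 points. Of the 26, 6 had passed the filter through the alpha cells alone and 1 through the tissue alone. Pcsk2, the convertase that cuts proglucagon to glucagon, was at 566, 343 and 265 RPKM against 1.66 to 30.5 in the tissue (median 9.30). Chga, chromogranin A, was at 1009, 655 and 790 RPKM against 7.74 to 173 (median 46.7). Cpe, the carboxypeptidase that trims cut hormones, held position 9 in each alpha cell library. These 3 genes lay apart in the higher direction with differences of 3.79, 0.661 and 2.95 points. Resp18, a granule protein gene, was among the 6 highest genes of the alpha cells, at 1534, 751 and 1105 RPKM.

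The synaptotagmin gene Syt5, a membrane fusion gene, had the largest difference in the higher direction of that list, with percentiles of 94.3, 91.3 and 95.9 against 19.5 to 63.1. Slc30a8, the zinc transporter gene of granules, was at 231, 248 and 197 RPKM against 0.338 to 7.96 in the tissue. The gene ranking lower was Pcsk1, the convertase that makes insulin and GLP-1, at 0, 0.04 and 0 RPKM against 1.48 to 4.88 (median 1.76). In the 5 sorted knockout libraries Pcsk1 stood at percentiles of 52.3 to 91.2, above the value given to genes at 0. Rab3a, Rph3al and Ica1 overlapped, and Stx1a was under the filter.

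All 14 counted ion channel genes of islet excitability ranked higher, against 20.3% of all counted genes, with a median difference of 36.3 points. However, 11 of the 14 had passed the filter through the alpha cells alone. Abcc8 and Kcnj11 encode the subunits of the ATP-sensitive potassium channel. Abcc8 was at 77.8, 80.6 and 76.2 RPKM against 0.313 to 4.77 in the tissue (median 1.43), and Kcnj11 at 5.30, 4.80 and 8.51 against 0.079 to 1.32 (median 0.305). Gria2, an AMPA glutamate receptor subunit, was at 30.7, 29.1 and 23.1 RPKM against 0 to 0.067, and Kcnk16, a leak potassium channel of islets, at 130, 50.1 and 65.3 against 0.371 to 1.94. Every alpha cell library exceeded every tissue library for these 4 genes. Scn9a, a sodium channel gene, had the second largest difference of the list, and the calcium channel genes Cacna1a, Cacna1c and Cacna1d were also among the 14, while Cacna1h was under the filter.

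Values scaled to Gcg within a library do not depend on the library's scale, but they still depend on the gene lengths of each table. Ttr stood at 35.9, 29.4 and 29.99 RPKM per 1000 RPKM of Gcg in the alpha cells, and at 138, 213 and 417 in the lowest, median and highest tissue libraries. Isl1 stood at 0.0763, 0.166 and 0.117 against 1.296 to 3.45 per 1000 of Gcg, and Pcsk2 at 1.46, 1.23 and 1.27 against 48.3 to 112. Chga stood at 2.61, 2.35 and 3.78 against 226 to 566. For all 4 genes the tissue lay above the alpha cells on this scale, the opposite direction to their percentile ranks. Relative to Gcg, 7 of 13 counted alpha identity genes were higher in the tissue and 6 overlapped, among them Irx1 and Irx2, each at 0 in 2 of the 8 tissue libraries. The tissue was higher for 11 of 12 endocrine transcription factors and for 22 of 26 granule genes, and lower for 0 genes of the 3 lists. Gcg itself had medians of 278666 RPKM in the alpha cells and 132 in the tissue. A gene with a smaller gap than that comes out higher in the tissue on this scale. The same share over all counted genes was not computed, so these counts are descriptions only. Beta and delta cells of the tissue also express many of these genes, and their part in the ratios was not tested. The part of cells outside the islets was not tested either. The ratio of Slc38a5 was highest, at 1815, in tissue library 1, where Gcg was lowest, at 34.3 RPKM.

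**Figure D3:**
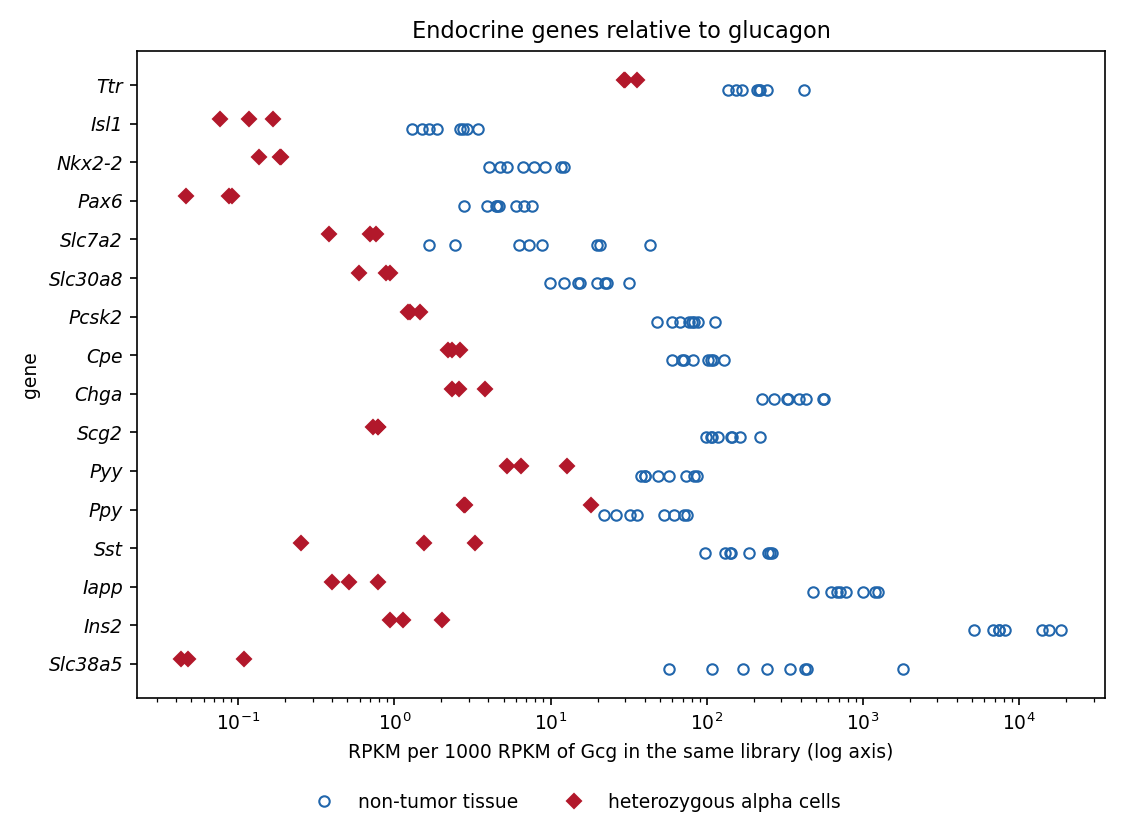
RPKM of 16 endocrine genes per 1000 RPKM of Gcg in the same library (log axis), with filled diamonds for 3 alpha cell libraries and open circles for 8 tissue libraries. Ttr stands at 29.4 to 35.9 in alpha cells and 138 to 417 in tissue, and Slc38a5, the lowest row, at 0.0433 to 0.109 and 57.8 to 1815.

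Of 8 counted nutrient and hormone receptors, 3 ranked higher, 3 ranked lower and 2 overlapped, against 20.3%, 22.4% and 49.5% of all counted genes. Of the 6 with a call, 5 had passed the filter through 1 group alone. Avpr1b, a vasopressin receptor gene, was at 23.2, 15.4 and 6.27 RPKM against 0 to 0.052 in the tissue. Casr, the calcium-sensing receptor, was at 4.09, 7.18 and 8.33 RPKM against 0.029 to 0.42, and Sstr3, a somatostatin receptor, at 14.2, 11.3 and 8.72 against 0.072 to 1.17. The 3 that ranked higher did so without overlap. The receptors ranking lower were Cckar, the cholecystokinin receptor of acinar cells, at 0, 0.417 and 0.463 RPKM against 45.4 to 75.9, with Chrm3, a muscarinic receptor, and Sstr2. Besides Gcgr, Gipr, Adra2a, Cckbr, Sctr and Galr1 were under the filter. The median difference of the list was 19.3 points over the 8 counted genes and -11.8 points over all 14, and without heterozygous library 1, 2 or 3, with the filter applied again, it was -1.93, -28.6 and -35.2.

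Amino acid transporters were mixed, with 5 of 17 counted genes higher, 3 lower and 5 overlapping, close to the 20.3% and 22.4% of all counted genes. Of the 17, 2 had passed the filter through the alpha cells alone and 3 through the tissue alone. Slc7a2, a carrier of arginine and lysine, was at 147, 196 and 161 RPKM against 0.51 to 2.24 in the tissue (median 1.40). Slc38a4, of the same carrier family as Slc38a5, was at 42.8, 41.4 and 20.6 RPKM against 0.34 to 1.92. Both stood above every tissue library, with Slc7a14, Slc3a1 and Slc43a2 the other genes ranking higher. Slc38a3, a glutamine carrier, was at 0 in all 3 alpha cell libraries and at 17.7 to 32.0 RPKM in the tissue, and Slc1a5 and Slc7a6 also ranked lower. Members under the filter were Slc38a1, Slc7a9, Slc7a11, Slc43a1 and Slc36a4. The knockout alpha cells, which share the tissue libraries as their comparison, had Slc38a5 at percentiles of 99.8 to 99.9, against 92.99 to 97.97 in the heterozygous libraries.

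Of 18 counted amino acid breakdown genes 11 ranked lower, 1 ranked higher and 4 overlapped, against 22.4% lower and 20.3% higher of all counted genes. Of the 18, 4 had passed the filter through the tissue alone. The median difference was -26.2 points over the 18, and -4.79 points over all 25 genes of the list found in both tables. Gls2, a glutaminase, was at 0, 0 and 0.296 RPKM in the alpha cells and at 9.35 to 19.4 in the tissue. Glul, glutamine synthetase, and Glud1, glutamate dehydrogenase, lay apart in the higher direction by 5.96 and 0.98 points. Gatm and Gamt, the enzymes of creatine synthesis, and the branched-chain enzymes Bcat2 and Bckdha were among those ranking lower. The urea cycle genes Otc and Cps1 were under the filter, with Arg2, Ass1, Hpd, Bcat1 and Tat, a tyrosine aminotransferase gene whose percentiles lay 42.4 points higher in the alpha cells without overlap.

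Of 8 counted genes for liver-type plasma proteins, Gc, Rbp4 and Apoa2 ranked higher and Alb and Apoe ranked lower. These were 3 and 2 of the 8, against 20.3% and 22.4% of all counted genes. Of the 8, 1 had passed the filter through the alpha cells alone and 1 through the tissue alone. Apoa2, an apolipoprotein, was at 11.7, 6.45 and 2.70 RPKM against 0.148 to 0.824 in the tissue. Alb, albumin, was at 0, 0 and 0.16 RPKM against 0.255 to 2.37. Clu, clusterin, lay apart in the lower direction by under 10 points, Serping1 overlapped and Apoh was under the filter.

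Digestive enzymes took 80.3% of the summed values in the lowest, 84.3% in the median and 86.1% in the highest tissue library, and 0.0033%, 1.06% and 0.208% in the alpha cells. All 27 enzyme genes lay below the tissue in every alpha cell library, 13 of them by 10 points or more, against 22.4% of all counted genes. Of the 27, 3 had passed the filter through the tissue alone. Ctrb1, a chymotrypsinogen and the highest tissue gene, was at 96415 to 141304 RPKM in the tissue (median 122660) and at 1.29, 2139 and 143 in the alpha cells. Cela2a, an elastase, was at 64309 to 83261 RPKM (median 72996) against 0.455, 171 and 76.1, and Prss2, a trypsinogen, at 40234 to 53795 (median 50440) against 0, 45.4 and 12.6. Alpha cell library 1 held the least and library 2 the most of each. The 10-point rule could miss such genes, since 12.6 RPKM already stood at percentile 95.2. The largest differences of the list were those of Ctrc and Prss3, at 0 in 2 of the 3 alpha cell libraries.

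The trace of enzyme transcripts in the alpha cells was compared with the tissue by each enzyme's share of the summed enzymes. Pearson's r across the 27 genes of the log2 share (plus 0.01 percentage points) with the tissue median was 0.484, 0.917 and 0.904 in alpha cell libraries 1, 2 and 3, with 17, 24 and 27 genes above 0. Genes are not independent replicates, so these values describe the libraries. The shares of 0, 3 and 6 enzymes lay inside the tissue range. In library 2, Ctrb1 made up 54.8% of the summed enzymes against 19.3% to 25.1% in the tissue. At the median gene, the enzymes stood at 0.0004%, 0.387% and 0.116% of their tissue level. Amy1, an amylase gene, stood far above that median, at 9.89%, 6.75% and 2.91% of its tissue level. The part of acinar RNA in other values of libraries 2 and 3 was not tested. Without alpha cell library 1, 2 or 3, the median enzyme share was 0.631%, 0.105% and 0.529%, in place of 0.208%.

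**Figure D4:**
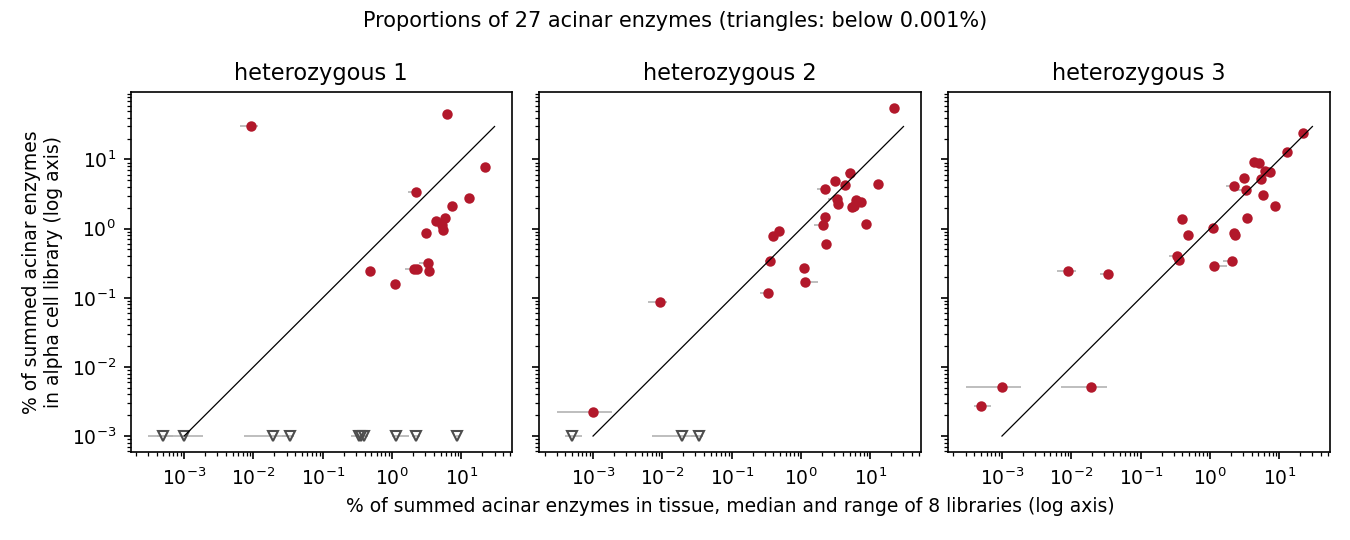
Share of each of 27 acinar enzymes in the summed enzyme values of an alpha cell library (vertical, log axis) against its share in the tissue (horizontal, log axis, median with the range of 8 libraries), with the line of equality. Shares in libraries 2 and 3 increase with those of the tissue, with r of 0.917 and 0.904, although 3 and 6 enzymes lie inside the tissue range, and library 1 scatters more, with r of 0.484 and 10 enzymes at the floor.

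Promoter letters of the enzymes were counted because these genes ranked lower together, and a match is a description, not a binding site. CACCTG, the E-box letters shown in the Cela1 and Rbpjl windows, was present on either strand in 12 of 23 enzyme promoters (52.2%), against 20.2% of all 32851 promoters of the same length. The 23 promoters belonged to 22 genes, Amy1 having more than 1, and some enzyme genes had none in the set. The related trypsinogen genes Prss1, Prss2, Prss3 and Try4 all held CACCTG, so the promoters are not independent. TATAAA was present in 43.5% against 13.6%, and TTTCCC in 34.8% against 25.2%. CACCTG and TTTCCC stood together in 21.7% of enzyme promoters and 4.9% of all. Of 9 promoters of alpha identity genes, 22.2% held CACCTG and 11.1% held TATAAA. The forkhead motif, searched as TGTTTAC, was found in 0 enzyme promoters and in 3.6% of all. Part of the Maf recognition element, searched as TGCTGAC, was found in 8.7% of enzyme promoters and in 4.7% of all promoters in the table. The 5 motifs do not contain each other's letters.

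All 8 acinar regulators ranked lower, against 22.4% of all counted genes, with a median difference of -62.2 points. Of the 8, 5 had passed the filter through the tissue alone. Ptf1a, the basic helix-loop-helix factor of acinar cells, was at 0 in all 3 alpha cell libraries and at 6.98, 8.89 and 17.0 RPKM in the lowest, median and highest tissue libraries. Rbpjl, its partner, was at 0 against 55.2, 75.7 and 132 RPKM. Both stood at 0 also in libraries 2 and 3, which carried enzyme transcripts. The depth of these libraries is unknown, so a 0 there sets no limit on acinar RNA. Erp27, a disulfide isomerase family member, was at 0, 0 and 0.29 RPKM against 196 to 278, and Bhlha15, Nr5a2, Gata4, Pdia2 and Serpini2 completed the 8.

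All 6 Reg family genes, which encode secreted lectins, ranked lower, against 22.4% of all counted genes, with a median difference of -75.2 points. Of the 6, 3 had passed the filter through the tissue alone. Reg3b was at 0 in all 3 alpha cell libraries and varied widely in the tissue, from 4.71 RPKM in the lowest library to 147 at the median and 1732 in the highest. Reg3a was at 0 against 1.49, 48.3 and 581 RPKM. Besides Reg3b, Reg3a and Rbpjl, the 8 largest differences in the lower direction were those of Gal, Ggt1, Tmed11, Hsd17b13 and Vtn, all at 0 in the 3 alpha cell libraries. Gal, the neuropeptide galanin, was at 67.0 to 132 RPKM in the tissue, and Ggt1, a glutathione-cleaving enzyme, at 47.9 to 64.5.

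Genes of the other tissue compartments also ranked lower, against 22.4% of all counted genes. Of 9 counted ductal genes 6 ranked lower and 3 overlapped, of 14 endothelial genes 12 ranked lower and 2 overlapped, and of 14 fibroblast and mural genes 12 ranked lower and 2 overlapped. Of 12 counted leukocyte genes 8 ranked lower and 4 overlapped. None of these 4 lists held a counted gene that ranked higher, and their median differences were -40.1, -53.7, -41.4 and -29.9 points. Of the 9, 14, 14 and 12 genes, 4, 6, 10 and 4 had passed the filter through the tissue alone. Over all 11 ductal genes the median difference was -22.8 points.

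Krt19, a duct keratin, was at 0 in all 3 alpha cell libraries and at 5.75 to 14.2 RPKM in the tissue, and Sox9, a duct transcription factor, at 0 against 1.25 to 4.10. Krt7 and Tspan8 overlapped, and Cftr and Slc4a4, a bicarbonate transporter gene, were under the filter, Slc4a4 with percentiles 16.1 points higher in the alpha cells and no overlap. Pecam1, an adhesion gene of endothelium, was at 3.09, 0.041 and 0.023 RPKM in the alpha cells and at 2.59 to 13.1 in the tissue. Cdh5, the endothelial cadherin, was at 0, 2.46 and 0.006 RPKM against 1.604 to 7.455, and Plvap, a fenestration gene, at 0, 1.43 and 0 against 9.63 to 50.9. Alpha cell library 1 thus held Pecam1 and library 2 held Cdh5 and Plvap at measurable levels. Tek and Cldn5 overlapped.

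Col3a1, a fibrillar collagen, was at 0.031, 0.006 and 0.275 RPKM against 2.31 to 46.2 in the tissue, and Dcn, decorin, at 0, 0.016 and 0.531 against 7.79 to 62.0. Lum, lumican, was at 0, 0 and 0.303 RPKM against 0.779 to 6.75, and Col1a2 and Myh11 overlapped. Tissue library 1 held the lowest value of Col3a1, Dcn and Lum. Among leukocyte genes, the macrophage genes C1qc and Csf1r ranked lower, at 0 to 0.048 and 0.009 to 0.026 RPKM in the alpha cells against 1.26 to 33.6 and 0.556 to 9.96. Lyz2, a lysozyme gene of myeloid cells, was at 7.48, 0.032 and 0.048 RPKM against 2.50 to 78.3. The pan-leukocyte gene Ptprc and the lymphocyte genes Cd3e, Cd3g and Cd79a overlapped, Cd79a being at 2.13, 4.32 and 1.799 RPKM against 0.07, 0.252 and 49.5 in the lowest, median and highest tissue libraries. Ms4a1 and Itgam were under the filter.

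Fabp4 was the counted adipocyte gene and ranked lower, and Adipoq, Plin1, Plin4, Cfd, Lep and Retn were under the filter. Hba-a1, an alpha globin, ranked lower, whereas Hba-a2 and Alas2 overlapped. All 7 glial genes were under the filter.

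**Figure D5:**
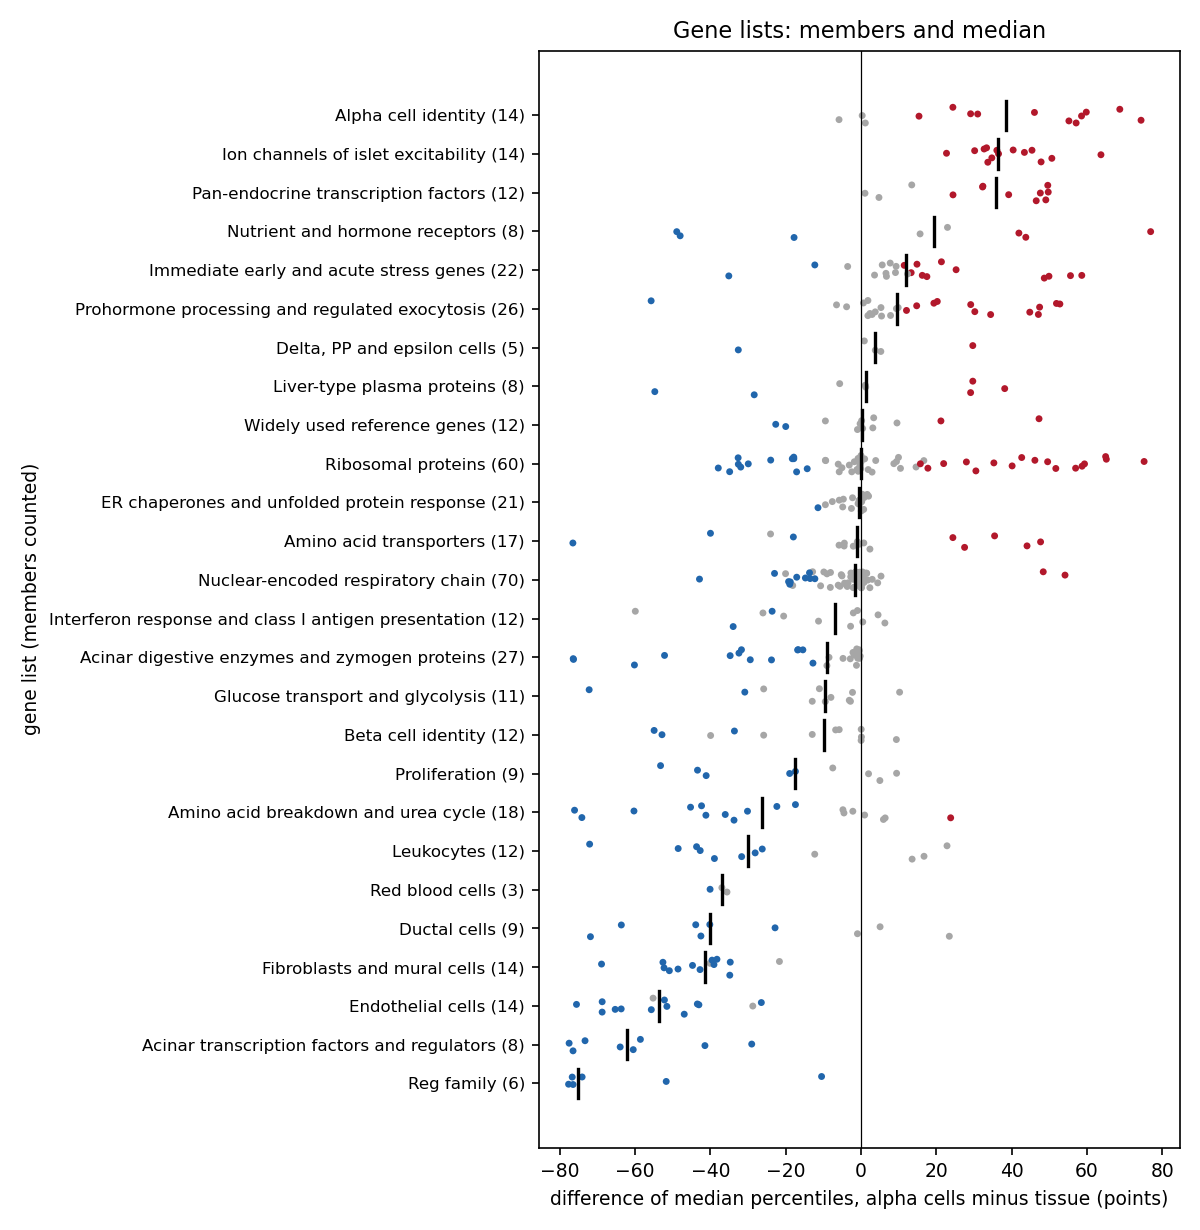
Difference of median percentiles, alpha cells minus tissue, for each counted member of every list with at least 3 counted genes (points; red ranks higher, blue ranks lower, gray not called), with the list median as a black bar and the number of counted members in brackets. Lists run from alpha identity at 38.5 points to the Reg family at -75.2 points.

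Immediate early and acute stress genes ranked higher in 11 of 22 cases and lower in 2, against 20.3% and 22.4% of all counted genes, with a median difference of 11.9 points. Of the 22, 4 had passed the filter through the alpha cells alone, Fosb and Hspa1a among them. Egr1, an early response transcription factor, was at 421, 422 and 284 RPKM in the alpha cells and 1.54 to 5.97 in the tissue (median 2.60). Fos was at 187, 192 and 179 RPKM against 1.00 to 7.74, Fosb at 128, 219 and 121 against 0 to 0.58, and the heat shock gene Hspa1a at 77.4, 101 and 32.0 against 0 to 0.306. Egr1, Fos, Fosb and Hspa1a all stood at percentile 98.8 or above in every alpha cell library. Jund and Myc ranked lower. Dissociation and sorting were applied to one group only, and their part in these values cannot be told apart from that of cell type.

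Of 21 endoplasmic reticulum chaperone and stress genes, 12 lay apart, 4 in the higher and 8 in the lower direction, against 50.5% of all counted genes apart. Only 1 of them differed by 10 points, in the lower direction, and 9 overlapped. Hspa5, the main chaperone of the compartment, was at 195, 163 and 156 RPKM in the alpha cells and 59.3 to 151 in the tissue. Xbp1, a factor of the unfolded protein response, was at 50.8, 48.4 and 43.1 RPKM against 44.8 to 78.1, and its percentiles overlapped. Dnajb11, the gene ranking lower, was at 14.6, 3.89 and 6.10 RPKM against 19.7 to 32.2. Atf4, a stress response factor, was among the 5 high genes with the smallest differences of all, with Ndufa10, Cope and Rps21 among the others.

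Interferon and class I presentation genes overlapped in 10 of 12 counted cases, against 49.5% of all counted genes. Tap1 and Tap2, the peptide transporter genes, ranked lower, and both had passed the filter through the tissue alone. Glucose transport and glycolysis genes overlapped in 8 of 11, against 49.5% of all counted genes. Ranking lower were Pfkl and Ldha, lactate dehydrogenase A. Ldha was at 0, 0 and 0.195 RPKM in the alpha cells against 6.498 to 23.34 in the tissue. Of the 11, only Ldha had passed the filter through the tissue alone. Proliferation genes ranked lower in 5 of 9 counted cases, against 22.4% of all counted genes, and overlapped in 4. Among the overlapping was Mki67, a marker of cycling cells, at 1.47, 1.23 and 0.012 RPKM against 0.156 to 3.88. Of the 9, 4 had passed the filter through the tissue alone. Rrm2, a subunit of the enzyme that makes deoxyribonucleotides, showed the largest difference of the 9.

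Of 12 counted reference genes 2 ranked higher, 2 ranked lower and 5 overlapped, against 20.3%, 22.4% and 49.5% of all counted genes. The median difference was 0.314 points over the 12 and 1.799 points over all 14. Actb, beta-actin, was at 131, 92.1 and 113 RPKM against 23.8 to 340 in the tissue and overlapped. Ywhaz, a gene every cell uses, was at 36.5, 20.8 and 21.7 RPKM against 0.223 to 0.71. Of the 12, only Ywhaz had passed the filter through the alpha cells alone. Ribosomal protein genes ranked higher in 17 of 60 counted cases and lower in 12, against 20.3% and 22.4% of all counted genes. Of the 60, 16 had passed the filter through the alpha cells alone and 1 through the tissue alone. All 17 that ranked higher had a tissue median under 1 RPKM, such as Rpl15 at 0 in the median tissue library. The alpha cells also held low values of genes every cell uses, such as Ppia at 0.184 to 0.546 RPKM. Among the 12 ribosomal genes that ranked lower, Rpl21 was at 0.112 to 0.146 and Rpsa at 0.201 to 1.36 RPKM in the alpha cells. Respiratory chain genes ranked higher in 2 of 70 and lower in 10, with 36 overlapping, against 20.3%, 22.4% and 49.5% of all counted genes. The 2 were Ndufb4 and Cox7c, at 0 and 0.102 RPKM in the median tissue library. Both had passed the filter through the alpha cells alone. How the authors assigned reads to these genes is not stated in the labels or headers. The same kind of value marked the 8 largest differences in the higher direction, Tmsb15b2, Rnasek, Tmsb15l, Tmsb15b1, Cox17, Hist1h4d, Zbed6 and Edn3, of which 6 were listed at 0 in all 8 tissue libraries.

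The 5 sorted alpha cell libraries of homozygous knockout mice, set against the same tissue libraries, gave 1503 genes ranking higher and 1619 ranking lower over the same 8605 genes, beside 1749 and 1926 for the heterozygous cells. Those genes were filtered with the heterozygous libraries, and with the filter applied to the knockout libraries instead, 1849 ranked higher and 1614 lower of 9347 genes. These counts share the tissue libraries. In the knockout cells the labelled genotype matched that of the tissue, while source, tamoxifen and table still differed. The labels name no Cre driver, and whether the receptor was lost for as long in both was not tested.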

How the data were processed

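Total RNA of sorted alpha cells and dissected tissue was extracted with RNeasy and made into TruSeq libraries, per the labels' protocols. CASAVA 1.8, GSNAP and GRCm38 appear, with no role, in the submitters' processing notes; for the counter, annotation and filters, nothing is stated there, in the labels or in the headers. Alpha cells (28096 rows) and tissue (22412 rows) each have a deposited table, whose headers name no unit and whose values were read as RPKM. Rows were matched by symbol, giving 19126 shared symbols. A date stood in place of 25 alpha cell and 26 tissue symbols, and 299 alpha cell rows had no symbol.

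Percentile ranks were computed within each library with Python 3.11.15, pandas 2.3.3, numpy 2.4.6 and scipy 1.17.1, and drawn with matplotlib 3.10.9. The call was tested on simulated data, 3 libraries against 8 over 19126 symbols with 8-fold changes. It recovered 36 of 100 rises and 77 of 100 falls (0 of 20 rises from above 50 RPKM and 0 of 20 such falls). In the simulated data it called 0.015% of 6570 unchanged genes. How often unchanged genes are called in the real libraries was not tested. There, the median standard deviation of percentiles was 7.34 over the 3 alpha cell libraries and 3.637 over the 8 tissue libraries. Reads behind the tissue values were recovered from whole-read steps in 15218 genes, and the totals are lower bounds.

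Genes were named by a rule: 6 islet hormone genes and Gcgr, the 6 highest of each group, the 8 largest differences in each direction (predicted genes and small RNAs left out), the 2 largest of each list and the 5 smallest differences among overlapping genes at percentile 95 or more in both groups. Another 39 genes given with values, and list members named to account for a list, fall outside it and were chosen after their values were seen. The groups, lists and rules were chosen with earlier results of these data known. Some genes that enter the counts are not reported here by name. Promoters came from RefSeq on GRCm38.p6.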

Additional observations from a re-analysis of the deposited data

Results flagged for a closer look

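In 44 of 149 sets of 8 tissue values (29.5%), the highest or lowest library lay farther from the other 7 than Dixon's 95% critical value allows. For normally spread values chance alone gives about 1 in 20. Some sets hold ties or lie at an end of the scale, such as Cpa1 at 99.966 against 99.971 in the other 7. The share flagged therefore cannot be set against that rate. Tissue library 1 accounted for 21 and tissue library 2 for 19, so most of the flagged sets describe the same pair of libraries and are not independent.

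Tissue library 1 had the lowest percentile of the islet genes Gcg (99.119), Ins1 (99.637), Ins2 (99.726), Iapp (98.094), Sst (89.305), Resp18 (75.782), Chga (95.611), Pcsk2 (80.987), Cpe (87.423) and Pdx1 (67.508). It was also lowest for the vessel and stromal genes Plvap (96.615), Pecam1 (86.56), Lum (69.988), Dcn (95.658) and Col3a1 (85.379). The macrophage genes C1qc (77.123), Lyz2 (86.226) and Csf1r (65.343) were lowest there as well, with Fabp4 (95.276), Glul (81.034) and Cpa1 (99.966).

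Tissue library 2 had the lowest percentile of Reg3b (85.237), Ggt1 (99.129), Tmed11 (98.941), Hsd17b13 (98.884), Slc38a3 (97.127), Gls2 (94.319), Prss3 (98.622), Sox9 (61.511) and Slc38a5 (98.115). It had the highest percentile of Fev (43.425), Avpr1b (33.943) and Mki67 (82.163). It also gave the highest share of summed values to leukocyte genes (0.182%), interferon and class I genes (0.148%), proliferation genes (0.008%), chaperones (0.223%), immediate early genes (0.027%), reference genes (0.15%) and ribosomal proteins (0.788%).

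Tissue library 3 was highest for St18 (59.513) and Kcnk16 (80.176), library 6 for Rps13 (41.208), and library 4 for the Reg family share (3.457%).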

How the results depend on the processing

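No paired analysis was possible because the labels tie no library to an animal. No test was made across the separately normalised tables. Main counts were 1749 higher and 1926 lower. A mean of at least 5 RPKM gave 589 and 367, raising the higher share of calls from 47.6% to 61.6%, and a minimum of 25 points gave 815 and 1116, both fewer by construction. Without each heterozygous library, on the same genes, counts were 1932 to 1998 and 2256 to 2358. With the filter reapplied, an alternative chosen after seeing the data, they were 1165, 1091 and 1075 higher and 2249 to 2344, with 31.4% to 33.8% of calls higher, since a gene seen in 2 alpha cell libraries then also needs a tissue library. Without each tissue library they were 1738 to 1812 and 1924 to 2037. The median Gcg share was 78.8% with the knockout alpha cells in place of the heterozygous, against 75.4%. On the log2 scales the median difference of all counted genes was -0.161 to -0.209. Ppia, under the filter, turned to -0.352 and -0.512 on the log2(RPKM + 1) scale centred on the median or on reference genes; the cause was not tested. Of 87 named genes with a call, 67 kept it under all 35 alternatives, and 20 of 27 list medians kept their sign. The exceptions, each under 1 or more alternatives, were receptors, adipocytes, ribosomal proteins, beta identity, amino acid transporters, chaperones and reference genes. Alpha cell depth is unknown, so a 0 there sets no limit.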
